A study of Arabidopsis thaliana with 2 samples.

Results

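The 132 Arabidopsis loci described here are the pectin methylesterases (pectinesterases) and the proteins related to their inhibitors. The rule for membership reads the annotation and no measured value. A locus was a member when the array's description of its spot held the word pectinesterase or pectin methylesterase and named neither a polygalacturonase nor a pectate lyase. They make up 132 of the 25665 loci named on the array, each with 1 probe. By their descriptions 66 encode pectinesterases, 64 encode inhibitor-type proteins and 2 are other annotations, a non-coding RNA that hosts a pectinesterase gene (AT3G27990) and a pectinesterase-related locus (AT3G42160). The word inhibitor in these descriptions covers inhibitors of both pectin methylesterase and invertase, which share a fold. Among them are C/VIF1 and C/VIF2, which are known as inhibitors of the sugar-cleaving enzyme invertase, so the inhibitor class is wider than its name.

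The study compared inflorescence stems of the sgr1 mutant with those of wild type (Col), using 2 Agilent two-colour arrays. The sgr1 (shoot gravitropism 1) mutant is affected in SCARECROW (SCR), a transcription factor needed to form the endodermis. The labels do not name the allele. Seeds of both genotypes were kept at 4 °C for 3 days, then spent 10 days on plates and were moved to soil, under constant light at 23 °C. The genotype was the only difference between the groups that the labels give, and each RNA sample pooled at least 10 plants with stems of 5 to 8 cm. Stem pieces of 1.5 cm were taken from the elongation zone, between 0.3 and 1.8 cm below the apex, after lateral organs had been removed. On array 1 sgr1 carried Cy3 and wild type Cy5, and on array 2 the dyes were swapped. The title and design text speak of 2 replicates, the description of 1 biological replicate, so p-values measure the spread between these 2 arrays, which may be technical. For each gene that spread was mostly the one shared over all measured genes (47.7 degrees of freedom), and little its own (1). The p-values and intervals are therefore not a measure of how well the arrays matched for a single gene.

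Homogalacturonan, the main pectin of the primary wall, is made in the Golgi and exported in a highly methylesterified form. Pectin methylesterases in the wall remove the methyl groups and release methanol, after which the chains can bind calcium and stiffen into a gel or be opened to pectin-cleaving enzymes. Inhibitor proteins bind the enzymes and block them, and many of the enzymes also carry an inhibitor-like segment that is cut off by subtilases on the way to the wall. In stems the balance of these activities is known to affect growth and mechanical strength.

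The scanner software judged 59.2% to 66.5% of spots per channel to be well above background, and it marked none as saturated. Ratios were taken as sgr1 over wild type on the log2 scale after loess normalization, and are given for each array and as mean ± SD (n = 2). Each was tested with limma, and p-values were adjusted by the Benjamini-Hochberg method over all 19059 measured genes. The SCR probe itself read -0.81 on array 1 and -1.16 on array 2 (adjusted p = 3.29e-07). Without the allele that value may not check the genotype labels. All 12 of the chosen stem tissue markers were well above background in every channel. Of these, SCR and SHR (-0.53), which both act in endodermis formation, fell. The epidermal genes FDH (0.61) and CER6 (0.53) rose, as did IRX3 (0.40), a cellulose synthase of the secondary wall that was named after its value was seen. The other 7 did not pass, among them the epidermal regulator ATML1 (-0.03) and the further secondary wall synthases IRX1 (0.17) and IRX5 (0.29). Over all measured genes 18.9% were called. With the log ratios of the scanner software SCR alone of the 12 was called. Their summed linear intensity, with log2 values averaged over the arrays first, was 64550 in sgr1 and 52430 in wild type. Without CER6 the sum was 30160 in sgr1 and 28590 in wild type. Their part in the results for the members was not tested. In whole stem pieces, fewer cells of a type and less RNA per cell cannot be told apart.

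A smaller share of the family than of all genes was measurable in these stems. A locus counted as measured when on each array sgr1, wild type or both gave a signal well above background, and 59 members (44.7%) reached this, against 74.26% of all loci on the array. The enzymes were measured more often, with 34 of 66 (51.52%), than the inhibitor-type proteins, with 24 of 64 (37.5%). Both genotypes were above background on both arrays for 44 members, some channels were for 30, and no channel was for 58. Members in the last group included the enzyme PME2 and the named inhibitors PMEI1, PMEI2 and PMEI5. They also included VGDH2, a homologue of the pollen tube enzyme VGD1, and RHS12, a gene named for its root hair expression. None of the 4 chosen root markers was measured. A member with a dim signal in all channels had no ratio, and its change was not detectable here. In the measured set the signal in sgr1 was above background on neither array for ATPMEPCRD, which was not called, and that in wild type on neither array for AT4G02250 and AT5G50030.

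**Figure D1:**
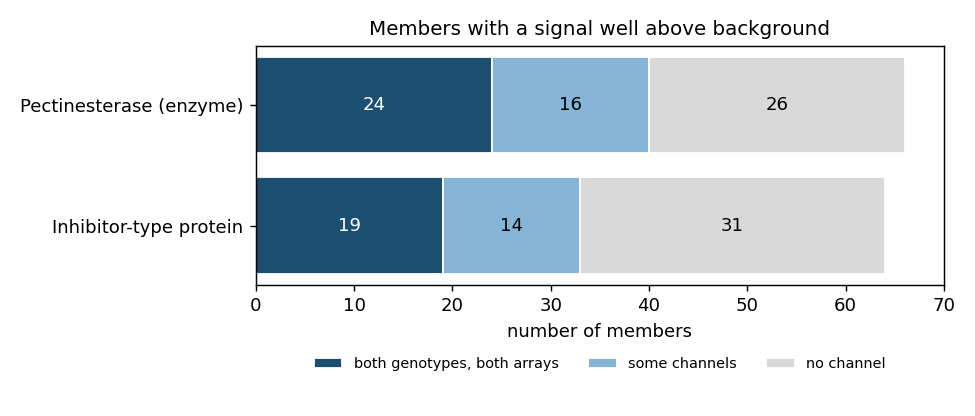
Horizontal bars give the number of members of each class by where their probe was well above background, among the 4 channels of 2 arrays. Of the enzymes 24 were above background in both genotypes on both arrays and 26 in no channel, and of the inhibitor-type proteins 19 and 31.

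Of the 59 measured members, 13 (22%) passed an adjusted p under 0.05, against 18.9% of all measured genes. In sgr1 10 members rose, where the share over all genes was 9.92%, and 3 fell, where it was 8.98%. In this main setting the share of the members called was thus close to that of the array as a whole. With the software's log ratios it was 20.3%, against 10.2% of all genes. Among the 10 rises, AT4G02250 and AT5G50030 were measured through the sgr1 signal alone. With both genotypes required above background on each array, 8 of 44 members rose and 3 fell (25% called, against 18.6% of all genes). The median log2 ratio of the 59 members was 0.09, with 0.13 on array 1 and 0.03 on array 2, and their quartiles were -0.12 and 0.28. Over all genes the median was 0.0048 and the quartiles were -0.17 and 0.18. The arrays had the same sign for 47 of the 59 members, and for 12817 of the 19059 measured genes. Only 1 member was at least 2-fold apart in the same direction on both arrays, against 1.53% of all genes. With median centring in place of loess limma called 0 members and 2 of all genes, and 1 member had an unadjusted p under 0.05.

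**Figure D2:**
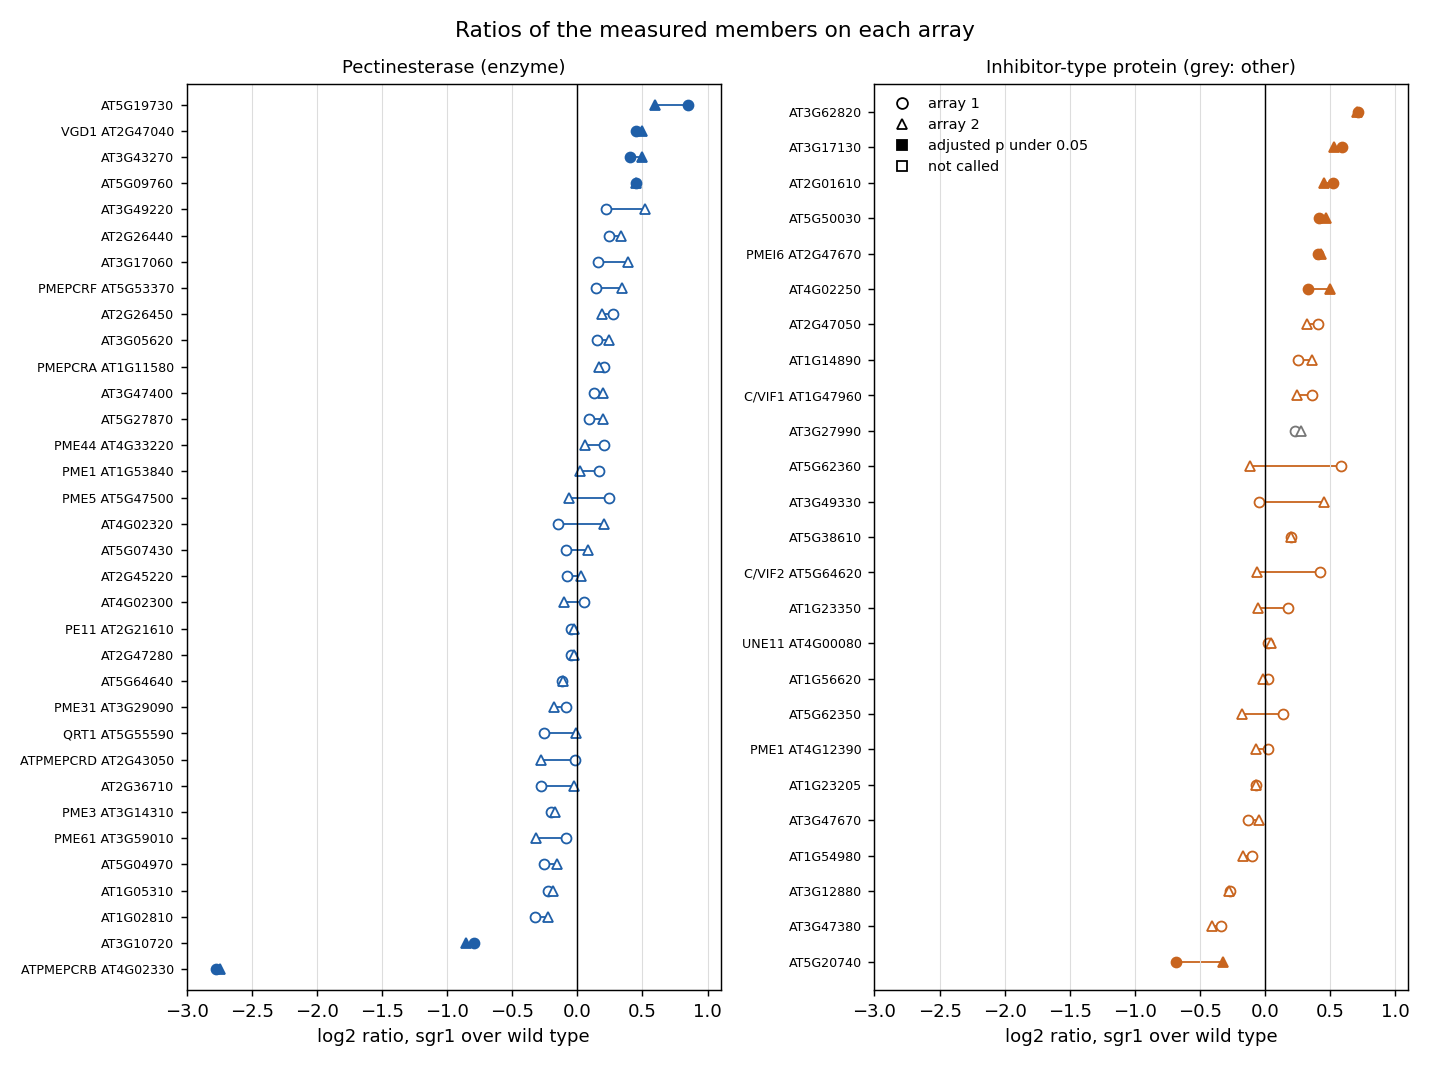
Each line joins the log2 ratio (sgr1 over wild type) of a measured member on array 1 (circle) with that on array 2 (triangle), for 34 enzymes on the left and 24 inhibitor-type proteins and 1 other locus on the right. Filled symbols mark the 13 called members, and ATPMEPCRB stands apart at -2.76, with the next lowest member, AT3G10720, at -0.83.

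Among the 34 measured enzymes, 4 rose, 2 fell and 28 did not pass the test. In the main setting the share called, 17.6%, was close to the 18.9% of all genes, and their median was 0.01. With the software's log ratios 4 enzymes rose and 2 fell, where 10.2% of all genes were called. The largest difference of the family was a fall in ATPMEPCRB (AT4G02330), a pectinesterase also listed as PME41, which has been linked to chilling tolerance. Its log2 intensity was 9.37 on array 1 and 9.32 on array 2 in sgr1, against 12.14 and 12.06 in wild type. Both sgr1 channels were thus far below both wild-type channels. For this and the other called members, such a gap restates the values behind the call and is no separate support. The log2 ratios were -2.78 and -2.74, and the mean of -2.76 ± 0.025 was a 6.76-fold fall (adjusted p = 1.61e-21, 95% interval -3.04 to -2.48). The range of this mean over the 10 alternative settings with a test was -2.90 to -2.75. With median centring the call was lost, and in the others the adjusted p from limma was at most 2.42e-04.

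The other enzyme that fell was AT3G10720, annotated as a putative pectinesterase. It read 11.17 and 11.20 in sgr1, against 11.97 and 12.05 in wild type, again without overlap. The ratios of -0.79 and -0.86 gave a mean of -0.83 ± 0.045, a 1.77-fold fall (adjusted p = 9.36e-06). These 2 were the lowest of all measured members, and the lowest enzyme that missed the threshold, AT1G02810, read -0.27 (adjusted p = 0.178).

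The rise among the enzymes was largest for AT5G19730, with 10.32 and 10.26 in sgr1, against 9.47 and 9.66 in wild type. Its ratios were 0.85 and 0.60, a mean of 0.72 ± 0.18 or 1.65-fold (adjusted p = 9.87e-05). AT5G09760 read 13.14 and 13.22 in sgr1, against 12.69 and 12.77 in wild type, a mean ratio of 0.45 ± 0.0022 (adjusted p = 0.0155). AT3G43270 read 11.02 and 11.14 in sgr1, against 10.62 and 10.64 in wild type, a mean ratio of 0.45 ± 0.066 (adjusted p = 0.0155). In all 3 the sgr1 channels lay above both wild-type channels. With the software's log ratios AT5G09760 (0.48, adjusted p = 0.0940) and AT3G43270 (0.48, adjusted p = 0.0943) were not called.

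VGD1 (AT2G47040), which is known for its role in growth of the pollen tube, also passed the test, at a dim signal. It read 6.69 and 7.08 in sgr1, against 6.24 and 6.58 in wild type. On each array sgr1 was higher, by 0.45 and 0.50, although the wild-type value of array 2 came close to the sgr1 value of array 1. The mean ratio was 0.48 ± 0.034 (adjusted p = 0.0105), and the scanner software's own log ratios gave 1.46. Of 14 pollen markers 5 were measured, and 0 were called by limma, by the software's log ratios or at an unadjusted p under 0.05. A further 8, DUO1 among them, were above background in no channel. The summed linear intensity of the 14, again from log2 values averaged over the arrays, was 1070 in sgr1 and 1063 in wild type. Of the 5 floral organ markers AP1 rose (0.61, adjusted p = 9.78e-04), SEP3 read -0.04, and AP3 and AG were above background in no channel. Their summed linear intensity, taken the same way, was 426.3 in sgr1 and 380.7 in wild type, and their part in the VGD1 value was not tested. In the pollen and floral sums each probe carries the offset of 50 added in background correction, and most of these probes were dim. These sums therefore cannot compare the pollen or floral content of the genotypes.

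A set of 11 members, most with a role or expression reported in shoots, was chosen with earlier results of these data known. All 11 are reported whatever their values. Of these 3 were called (ATPMEPCRB, VGD1 and AT5G20740), 7 were not, and PME2 was not measured. Over all measured genes 18.9% were called. PME61 (AT3G59010), also called PME35 and known for the mechanical support of the stem, read 9.11 and 9.09 in sgr1, against 9.19 and 9.40 in wild type. Both sgr1 values were lower, but the mean of -0.20 ± 0.17 did not pass the test (adjusted p = 0.360), with a 95% interval of -0.48 to 0.08. PME5 (AT5G47500), which acts in shoot meristems and internodes, had ratios of 0.25 and -0.06, so that the arrays differed in sign (mean 0.09, adjusted p = 0.726). PME3 (AT3G14310), a broadly expressed enzyme, had ratios of -0.20 and -0.17 (mean -0.19, adjusted p = 0.399).

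Of the 7 that were not called AT3G49220 came nearest to the threshold, with 13.04 and 13.21 in sgr1, against 12.83 and 12.69 in wild type. Its ratios of 0.22 and 0.52 gave a mean of 0.37 ± 0.21 (adjusted p = 0.0584). PME44 (AT4G33220) averaged 0.13 (adjusted p = 0.587) and PMEPCRA (AT1G11580) 0.19 (adjusted p = 0.403). QRT1 (AT5G55590), which separates pollen grains from their tetrads, averaged -0.13 (adjusted p = 0.580) and each genotype exceeded background on a single array.

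Among the 24 measured inhibitor-type proteins, 6 rose, 1 fell and 17 did not pass the test. Called members made up 29.2% of them, against 18.9% of all genes. This count includes AT4G02250 and AT5G50030, which were measured through the sgr1 signal alone. With both genotypes required above background on each array, 4 of 19 rose and 1 fell, where 18.6% of all genes were called. The median log2 ratio of the 24 was 0.19, but it was 0.19 on array 1 and 0.02 on array 2. The difference between the enzymes and the inhibitor-type proteins was not tested.

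The largest rise in this class was that of AT3G62820, which read 11.88 and 11.75 in sgr1, against 11.17 and 11.04 in wild type. Its ratio was 0.71 on each array, a 1.64-fold rise (0.71 ± 0.0021, adjusted p = 1.15e-04). AT3G17130 read 10.78 and 10.51 in sgr1, against 10.19 and 9.99 in wild type, a mean ratio of 0.56 ± 0.046 (adjusted p = 0.00245). AT2G01610 read 12.71 and 12.52 in sgr1, against 12.19 and 12.07 in wild type, a mean ratio of 0.49 ± 0.051 (adjusted p = 0.00842). The sgr1 channels of these 3 genes were above both of their wild-type channels. With the software's log ratios AT3G17130 (0.58, adjusted p = 0.0586) and AT2G01610 (0.50, adjusted p = 0.0831) were not called.

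The other rises in the class were in probes of low signal. PMEI6 (AT2G47670), an inhibitor known from the release of seed coat mucilage, read 7.61 and 7.67 in sgr1, against 7.20 and 7.24 in wild type, without overlap. Its mean ratio was 0.42 ± 0.019 (adjusted p = 0.0266). In the remaining pair of genes wild type was not well above background on either array, so the fold is a lower limit.

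For AT5G50030 the values were 6.37 and 6.76 in sgr1, against 5.96 and 6.30 in wild type, at least 1.31-fold higher. The limma test was of its mean log2 ratio of 0.44 (adjusted p = 0.0199), and the software's log ratios gave 1.95. For AT4G02250 the values were 6.26 and 6.41 in sgr1, against 5.93 and 5.92 in wild type, at least 1.15-fold higher. Its mean log2 ratio was 0.41 (adjusted p = 0.0285), and the software's log ratios gave 2.83. Each limit sets the mean of sgr1 against whichever was higher, the wild-type signal or the dimmest signal that counted as well above background. Without background correction neither gene passed the test.

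The only inhibitor-type protein that fell was AT5G20740, described like the others as an inhibitor of invertase or pectin methylesterase. It read 14.57 and 14.91 in sgr1, against 15.25 and 15.23 in wild type. Both sgr1 values were lower, although the size of the fall differed, with ratios of -0.68 and -0.32 (mean -0.50 ± 0.26, 1.42-fold, adjusted p = 0.00774). The call ended with trend and robust moderation of the spread (adjusted p = 0.0608) and with the log ratios of the scanner software (adjusted p = 0.0859).

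**Figure D3:**
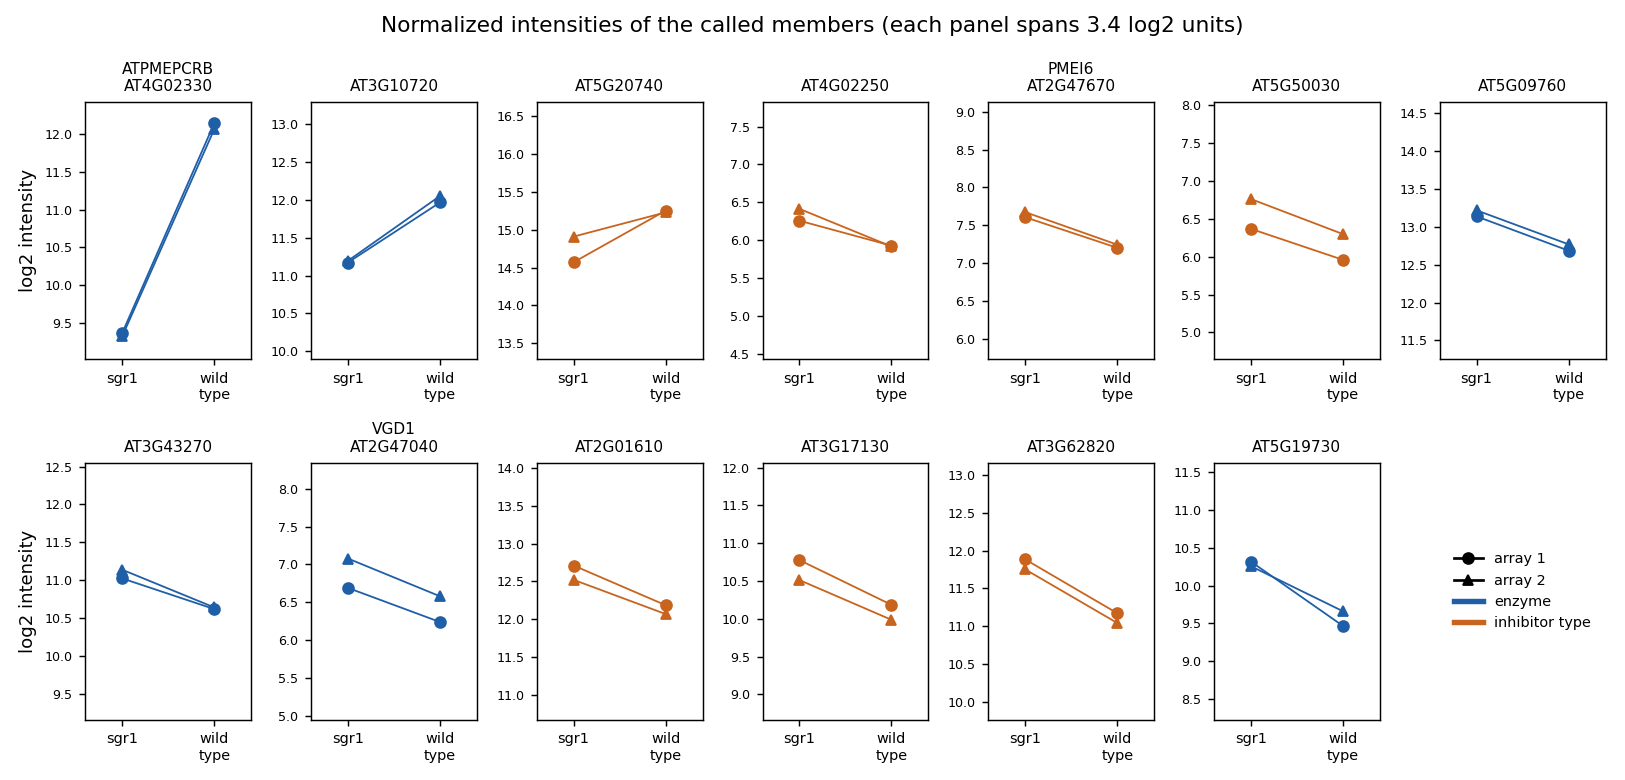
Each panel shows the normalized log2 intensity of 1 called member in sgr1 (left) and wild type (right), with a line for each array, in order from the lowest ratio to the highest. ATPMEPCRB had ratios of -2.78 and -2.74, and among the other 12 called members no array went beyond -0.86 or 0.85.

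The inhibitor-type proteins that missed the threshold included AT3G47380, with ratios of -0.34 and -0.41 (mean -0.37, adjusted p = 0.0514), and AT2G47050, with 0.41 and 0.32 (mean 0.36, adjusted p = 0.0584). AT3G47380 passed under 5 of the 10 alternative settings with a test. The widest gap between the arrays among all members was 0.69 log2 units, in AT5G62360, which read 0.58 on array 1 and -0.11 on array 2. The invertase inhibitors C/VIF1 (AT1G47960) and C/VIF2 (AT5G64620) averaged 0.30 and 0.18, and neither was called. Of all 46 members that were not called, 43 had a 95% interval that lay within 1.5-fold of no difference in the main setting. The means of the 46 ranged from -0.37 to 0.37. With the software's log ratios AT2G26450 (0.91), AT3G17060 (0.89), AT1G54980 (-0.70) and AT3G47380 (-1.15) were called. The intervals thus hold for the main setting only.

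Many of these genes lie side by side. In the gene order of the RefSeq table of the TAIR10.1 assembly, 131 members could be placed, and 51 of them formed 20 runs of at least 2 neighbours. In 6 of the runs no member was measured, and 4 runs had at least 2 measured members. ATPMEPCRB lies next to AT4G02320, another pectinesterase gene, which read -0.15 and 0.21 (mean 0.03), so the fall of ATPMEPCRB was not seen in its neighbour. The run that holds VGD1 (0.48) also holds AT2G47050 (0.36), and between AT2G26440 and AT2G26450 the values were alike at 0.29 and 0.23. In the last of these 4 runs AT5G62350 read -0.02 and AT5G62360 0.23. AT3G10720 lies beside RHS12, which was above background in no channel. Probe sequences were not used here, so cross-hybridization between such close relatives was not tested.

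The list for homogalacturonan synthesis held 13 genes of the galacturonosyltransferase family. Of these 0 passed the limma test, 1 had an unadjusted p under 0.05, and the software's log ratios called 0. The highest was GAUT14 at 0.32 (adjusted p = 0.106, unadjusted 95% interval 0.04 to 0.60). Their median was 0.06. Over all measured genes limma called 18.9%. Of 4 genes of methylesterification, the step that adds the groups the family removes, 0 passed with limma, 2 had an unadjusted p under 0.05 and the software's log ratios called 0. Their median was 0.21. QUA3 came nearest, with ratios of 0.05 and 0.72 (adjusted p = 0.0577).

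Of the 3 measured subtilases with a role in processing or restraining pectin methylesterases, 1 rose. This was SBT1.7 (ARA12, AT5G67360), with ratios of 0.52 and 0.24 (mean 0.38 ± 0.20, adjusted p = 0.0482), and with the software's log ratios 0 of the list passed. Over all measured genes 9.92% rose. Among 10 measured pectin acetylesterases, which remove acetyl rather than methyl groups, 2 rose (20% called, against 18.9% of all genes), 0 fell and 8 did not pass. AT1G57590 read 1.94 and 1.66 (mean 1.80 ± 0.20, 3.48-fold, adjusted p = 7.75e-15). AT4G19420, also called PAE8, averaged 0.45 ± 0.14 (adjusted p = 0.0157), and with the software's log ratios it was not called (adjusted p = 0.107).

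Of 8 genes that sense pectin or regulate its modification, 3 fell, 0 rose and 5 did not pass, and the software's log ratios called WAK1 and WAK2. Over all measured genes 8.98% fell and 9.92% rose, and these 8 were chosen with earlier results of these data known. WAK1 and WAK2 encode receptor kinases that bind pectin in the wall. WAK1 had ratios of -1.09 and -0.97 (mean -1.03 ± 0.085, 2.04-fold, adjusted p = 8.94e-08), and WAK2 averaged -0.64 ± 0.093 (adjusted p = 5.39e-04). RLP44, a receptor-like protein that links the state of pectin to brassinosteroid signalling, averaged -0.49 ± 0.42 (adjusted p = 0.0113), with -0.79 on array 1 and -0.20 on array 2. The homeodomain genes BP and BLR, known as regulators of pectin methylesterase genes in stems, read 0.30 and -0.02, and the receptor kinase FER read -0.03.

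**Figure D4:**
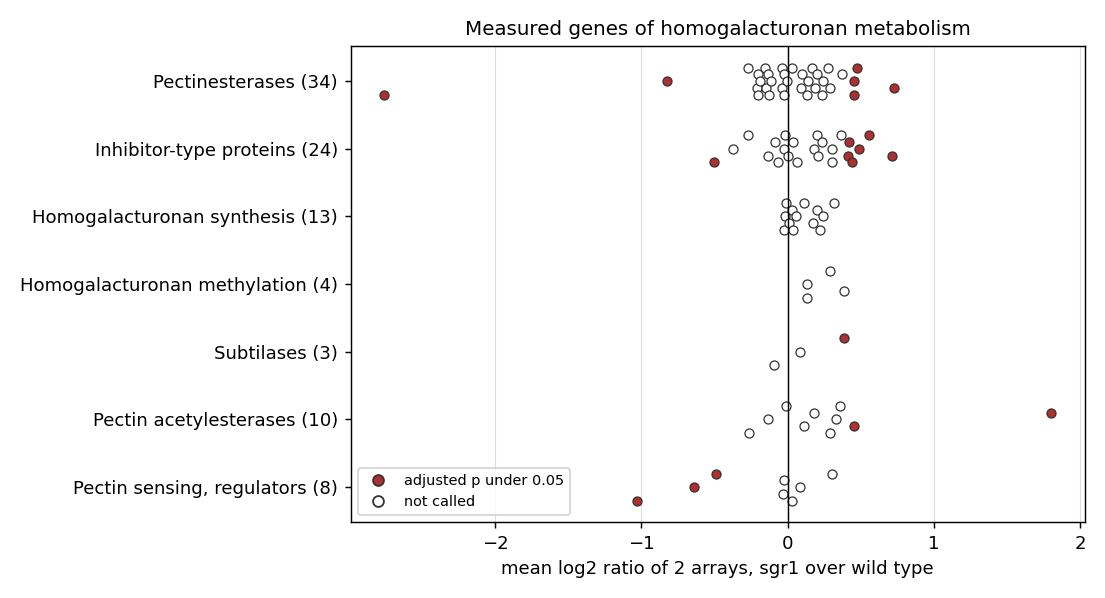
Each point is the mean log2 ratio (sgr1 over wild type, 2 arrays) of a measured gene, by list, with the number measured in brackets, and filled points are called at an adjusted p under 0.05. The vertical scatter within a list carries no value. ATPMEPCRB at -2.76 and AT1G57590 at 1.80 are the lowest and the highest points.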

How the data were processed

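Per the file headers, the deposited scanner files were made with Agilent Feature Extraction 9.1.3.1. They hold mean and background intensities per spot, flags, and a log10 ratio of Cy5 over Cy3 that the deposited value table repeats. No source used here names the genome build. In limma 3.58.1 (R 4.3.3), background was corrected by normexp (offset 50) and each array was normalized by loess, with control and outlier spots (96 and 177) at weight 0. The sign of array 1 was turned to read sgr1 over wild type. Outlier spots were left out, probes with at least 1 channel well above background on each array were kept, and probes of a locus were averaged. Each ratio was tested against 0 (lmFit and eBayes, two-sided), with 1 residual and 47.7 prior degrees of freedom.

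Both arrays lie on 1 slide, so slide could not be tested as a batch. Array 1 had a median log2 ratio of -0.03 and array 2 one of 0.04. The procedure was run on simulated data only to check the code, and that run is no support for the calls. Members and lists were chosen with earlier results of these data known. Named were all called members, 11 loci, most with a published role or expression in shoots, and up to 4 called genes per other list. Others were named after their values were seen. Classes came from the descriptions. Alternatives covered background correction, normalization, starting values, dim probes, moderation, probe choice and single arrays.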

Additional observations from a re-analysis of the deposited data

Results flagged for a closer look

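One spot matched the description words but named no locus, and it was therefore outside the 132 members. The spot TC252990, described as similar to a pectinesterase, was well above background in all channels. It read 8.66 and 9.28 in sgr1, against 8.55 and 8.48 in wild type. Its log2 ratios of 0.11 and 0.80 differed between the arrays and averaged 0.46. It was looked at because it is a pectinesterase-like signal that entered no comparison.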

How the results depend on the processing

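Of the 13 called members, 6 kept their call in every tested setting other than median centring, and 7 lost it in another one too. With median centring in place of loess 0 members were called, 0 higher and 0 lower, and 2 of all genes were called by limma. No called member turned in direction, and ATPMEPCRB read -2.75 there. The cause was not tested. The scanner software's log ratios called 12 members (20.3%), 8 of them shared with the main setting, and 1952 of all genes (10.2%). Here the share of the members was not close to that of all genes. These log ratios put 5 members at least 2-fold apart on each array. Lost there were AT2G01610, AT3G17130, AT3G43270, AT5G09760 and AT5G20740, with adjusted p from 0.0586 to 0.0943 at ratios slightly larger in size (AT5G20740 read -0.52, the others 0.48 to 0.58). Gained there were AT2G26450, AT3G17060, AT1G54980 and AT3G47380. Requiring both channels above background moved the median of the members to 0.17, with fewer members tested. In the settings other than median centring between 11 and 16 members were called, but the number tested differed. With normexp offset 16 the share was 27.1% of 59 members, against 19.7% of all genes. With both channels required it was 25% of 44, against 18.6%. Without a filter on dim probes it was 10.6% of 132, against 12.9%. Using 1 array alone, the median of the members was 0.03 to 0.13 and 1 member was at least 2-fold apart. One array, or both averaged as 1 replicate, allows no test. The ratio within each array already pairs sgr1 with wild type, so no further replicate block was fitted. Dim probes limit the rest, since 73 members had no ratio.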
